A study of Homo sapiens with 12 samples.

Results

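The hypoxia targets and glycolysis enzymes described here are 35 genes of the 57820 counted: 17 enzymes of the glycolytic chain and lactate production, and 18 further targets or components of the hypoxia-inducible factor (HIF) pathway. They were chosen by name, with earlier results of these data known, so shares of members that fell or rose are descriptions only. The 12 libraries, in 6 groups of 2, come from T47D-MTVL, a luminal breast cancer line (T47D) with 1 integrated luciferase reporter driven by the MMTV promoter. The cells grew without phenol red in charcoal-treated serum, none received the progestin R5020, and no group was exposed to low oxygen, as far as the labels say. The siPADI2 groups were transfected with an siRNA against PADI2, an enzyme that converts arginine in proteins to citrulline, and the siCtrl groups with a control siRNA. Poly(A) RNA and chromatin-bound RNA were each sequenced from both. The R1810A and WT groups gave poly(A) RNA only. They were transfected for 24 hours with an HA-tagged RNA polymerase II (RNAP2) that resists alpha-amanitin, with the R1810A substitution or without it, and then kept for 12 hours in 6 µg/ml alpha-amanitin, which blocks the cells' own polymerase. These were transfections of 1 cell line, and the share of cells that took up an siRNA or a plasmid is not given.

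Glycolysis turns glucose into pyruvate and yields ATP without oxygen, and lactate dehydrogenase then regenerates the cofactor that keeps the chain running. When oxygen is low, the HIF alpha subunits escape the prolyl hydroxylases that mark them for destruction, pair with ARNT, and bind DNA at ACGTG or GCGTG words near genes for glucose uptake, glycolysis, lactate export and blood vessel growth. Many of these genes are also active in well-oxygenated tumour cells, so their RNA can be measured without a hypoxic treatment.

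The promoters of the genes with the largest falls after siPADI2 are shown first, with ADM, a HIF target that rose. Each is a RefSeq window of 300 bases, from 250 before to 50 after the annotated start, in the direction of transcription on build GRCh38.p14. Capitals mark every ACGTG or GCGTG on either strand. A CACGTG, which reads ACGTG on both strands, counts as 1 match. Where the table holds several windows for a gene, the one with most matches is printed. The windows lie at chr14:33951025-33951324 (minus strand) for EGLN3, chr10:6144671-6144970 (plus) for PFKFB3, chr11:18394313-18394612 (plus) for LDHA, chr17:28576846-28577145 (minus) for ALDOC and chr11:10304823-10305122 (plus) for ADM.
EGLN3: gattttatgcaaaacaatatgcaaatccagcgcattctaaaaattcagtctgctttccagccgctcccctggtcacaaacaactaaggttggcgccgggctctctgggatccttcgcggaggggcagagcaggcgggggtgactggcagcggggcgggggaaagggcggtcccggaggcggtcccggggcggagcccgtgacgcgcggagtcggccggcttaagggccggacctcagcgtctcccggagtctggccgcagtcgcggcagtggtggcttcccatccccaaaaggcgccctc
PFKFB3: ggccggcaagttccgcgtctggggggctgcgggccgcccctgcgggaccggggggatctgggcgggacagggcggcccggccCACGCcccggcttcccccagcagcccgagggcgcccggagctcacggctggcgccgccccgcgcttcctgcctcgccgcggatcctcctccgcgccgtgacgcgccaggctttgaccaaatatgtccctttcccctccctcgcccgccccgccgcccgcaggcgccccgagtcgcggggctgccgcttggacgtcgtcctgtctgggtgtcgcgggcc
LDHA: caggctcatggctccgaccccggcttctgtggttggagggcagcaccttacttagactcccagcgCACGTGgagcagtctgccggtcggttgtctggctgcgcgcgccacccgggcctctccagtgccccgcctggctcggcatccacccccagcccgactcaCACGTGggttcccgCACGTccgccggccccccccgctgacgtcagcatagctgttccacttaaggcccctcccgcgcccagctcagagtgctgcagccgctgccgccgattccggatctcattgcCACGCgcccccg
ALDOC: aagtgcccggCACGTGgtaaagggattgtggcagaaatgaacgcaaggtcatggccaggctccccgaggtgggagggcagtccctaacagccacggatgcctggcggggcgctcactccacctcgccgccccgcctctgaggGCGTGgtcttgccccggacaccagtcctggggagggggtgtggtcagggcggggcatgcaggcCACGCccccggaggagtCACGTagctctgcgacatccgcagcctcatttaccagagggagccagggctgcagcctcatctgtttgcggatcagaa
ADM: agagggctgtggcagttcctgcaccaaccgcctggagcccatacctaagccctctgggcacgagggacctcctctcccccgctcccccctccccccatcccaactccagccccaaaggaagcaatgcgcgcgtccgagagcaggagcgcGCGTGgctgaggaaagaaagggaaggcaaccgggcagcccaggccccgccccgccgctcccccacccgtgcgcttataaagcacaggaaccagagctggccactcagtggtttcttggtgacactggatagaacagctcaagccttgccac

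The LDHA and ALDOC windows held 4 matches each, those of PFKFB3 and ADM 1 each, and that of EGLN3 none in these 300 bases. RefSeq windows were found for 32 of the 35 members (60 windows), and NDRG1, VEGFA and SLC2A3 had none. Of the 60 windows, 36.7% held ACGTG and 40.0% GCGTG, and 66.7% held at least 1 of these words. Among all 35116 promoter windows of this length the shares were 21.4%, 36.5% and 48.4%. The members' windows had a median GC content of 68.3%, against 58.7% for all windows, and both words contain CG, so the shares are given as descriptions only.

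Levels below are CPM, the count divided by the TMM-scaled library size and multiplied by 1e+06, scaled within each comparison. A gene is called higher or lower where edgeR's quasi-likelihood test gave a Benjamini-Hochberg adjusted p under 0.05 over all genes tested, and SE is the standard error of the log2 fold change. Groups are said not to overlap where both libraries of a group lay above both of the other. With 2 libraries each this is a description only, and its share over all genes was not counted. In chromatin RNA 26 members lay below and 3 above in this way, while 15 were called. The poly(A) libraries held 44.3 to 132.8 times 1e+06 counted fragments. The siPADI2 chromatin libraries held 2.8 and 2.72 times 1e+06, against 7.04 and 6.67 times 1e+06 in the siCtrl ones. The members took 0.732% and 0.713% of all counts in the siPADI2 poly(A) libraries, against 1.06% and 1.03% in the siCtrl ones. In the libraries labelled R1810A they took 0.639% and 0.709%, against 0.734% and 0.787% in the WT ones. PADI2 fell to 1.83 and 1.88 CPM in siPADI2 cells, against 24.0 and 22.6 CPM in siCtrl cells. It stood at 3.13 and 2.35 CPM in the libraries labelled R1810A, against 48.9 and 50.7 CPM in the WT libraries, although the R1810A label names no PADI2 siRNA. The name "libraries labelled R1810A" is therefore used throughout, and directions drawn from them carry that reservation. All 9 luminal markers were present in every poly(A) library, as the T47D label requires. Their summed level was 6551 and 6080 CPM in siPADI2 cells, against 11300 and 10150 CPM in siCtrl cells, and 6723 and 7535 CPM in the libraries labelled R1810A, against 10040 and 10570 CPM in the WT libraries. By the same test 6 of the 9 fell and 1 rose after siPADI2, and 6 fell and 2 rose in the libraries labelled R1810A. Of all genes tested, 27.9% fell and 28.8% rose after siPADI2, and 24.3% fell and 22.6% rose in the libraries labelled R1810A. The luminal markers moved with both comparisons, and their part in the members' changes was not tested. Leukocyte markers summed to at most 1.37 CPM and endothelial markers to at most 0.143 CPM in any poly(A) library. The mesenchymal markers, almost all of it COL1A1, summed to 67.4 and 68.0 CPM in siPADI2 cells, against 72.9 and 59.6 CPM in siCtrl cells, and to 56.7 and 48.4 CPM in the libraries labelled R1810A, against 58.4 and 43.3 CPM in the WT libraries.

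In poly(A) RNA, RNA for nearly the whole glycolytic chain fell after siPADI2. Of 17 enzyme genes 16 were tested, 14 fell and 2 rose (PFKL and ENO2). The largest falls were those of LDHA, the main lactate-forming subunit, and ALDOC, an aldolase, each to about 0.3 of its siCtrl level. The median log2 fold change of the 16 was −0.62, while that of all 18720 genes tested was 0.005. Over both groups of members 25 of the 32 tested fell and 5 rose, where 27.9% of all genes tested fell and 28.8% rose. In bulk RNA, fewer cells that express a gene and less RNA per cell cannot be told apart.

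Glucose enters the chain through hexokinase. HK1 had 267 and 248.6 CPM in siPADI2 cells, against 371 and 351 CPM in siCtrl cells. HK2, the isozyme known as a HIF target, had 30.7 and 34.6 CPM in siPADI2 cells, against 56.1 and 54.1 CPM in siCtrl cells. Both siPADI2 libraries lay below both siCtrl libraries for each isozyme, with log2 fold changes of −0.48 (SE 0.0845, adjusted p = 5.90e-06) and −0.75 (SE 0.0899, adjusted p = 2.89e-09). GPI, which converts glucose phosphate to fructose phosphate, fell by 0.35 on the log2 scale (adjusted p = 4.10e-04).

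The 3 phosphofructokinase isozymes, which catalyse the committed step, did not move together. PFKL, the liver type, rose to 149 and 136 CPM in siPADI2 cells, against 116 and 99.7 CPM in siCtrl cells (log2 fold change 0.40, SE 0.0865, adjusted p = 1.29e-04). PFKM, the muscle type, had 89.98 and 92.1 CPM in siPADI2 cells, against 126 and 120 CPM in siCtrl cells (−0.43, adjusted p = 2.16e-05). PFKP, the platelet type, had 71.8 and 75.7 CPM in siPADI2 cells, against 100 and 87.9 CPM in siCtrl cells (−0.35, adjusted p = 5.90e-04). The groups did not overlap for any of the 3. Per kilobase of exon, the mean levels were 15.99 (PFKL), 12.5 (PFKM) and 15.3 (PFKP) CPM in siPADI2 cells, against 12.1, 16.9 and 19.5 CPM in siCtrl cells.

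Aldolase splits the resulting sugar into triose phosphates. ALDOA, the predominant form, had 927 and 835 CPM in siPADI2 cells, against 1397 and 1275 CPM in siCtrl cells (log2 fold change −0.60, adjusted p = 3.98e-07). ALDOC, whose window above holds 4 matches, had 45.6 and 50.4 CPM in siPADI2 cells, against 137 and 142 CPM in siCtrl cells. Its log2 fold change was −1.54 (SE 0.0850, adjusted p = 1.55e-18), and neither gene's groups overlapped. TPI1, which interconverts the triose phosphates, had the smallest fall among the enzymes (−0.26, adjusted p = 0.00730) and was not called without siPADI2 replicate 2 (−0.22, adjusted p = 0.102) or after GC correction (−0.14, adjusted p = 0.0605).

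Several genes of the steps that follow fell by similar amounts. The log2 fold changes were −0.75 for GAPDH, −0.63 for the phosphoglycerate kinase PGK1, −0.64 for the mutase PGAM1 and −0.73 for the pyruvate kinase PKM, with adjusted p between 2.57e-09 and 4.34e-08. Reads shared with the 64 GAPDH and 13 PGAM1 pseudogenes could be lost from these genes, and the pseudogenes' own poly(A) counts came to 0.649% and 1.16% of the parent's. Enolase was split between its isozymes. ENO1, the widespread form, had 1186 and 1086 CPM in siPADI2 cells, against 1891 and 1830 CPM in siCtrl cells (log2 fold change −0.71, adjusted p = 1.06e-08). ENO2, the neuronal form, had 4.46 and 4.64 CPM in siPADI2 cells, against 2.66 and 2.49 CPM in siCtrl cells (0.83, SE 0.146, adjusted p = 6.32e-06). The ENO2 groups did not overlap, and its mean level per kilobase, 1.06 CPM in siPADI2 cells and 0.601 CPM in siCtrl cells, stayed far below the 287 and 470 CPM of ENO1.

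Lactate dehydrogenase had the largest change among the enzymes. LDHA (ENSG00000134333.9, hg19 chromosome 11 from 18415935 to 18429972) had 371 and 403 CPM in siPADI2 cells, against 1236 and 1282 CPM in siCtrl cells. Both siPADI2 libraries were far below both siCtrl libraries (log2 fold change −1.70, SE 0.0900, adjusted p = 3.99e-19). LDHB, the subunit that favours conversion of lactate to pyruvate, was almost absent from poly(A) RNA, with 10 and 6 fragments in siPADI2 libraries and 0 and 4 in siCtrl libraries, and was not tested.

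**Figure D1:**
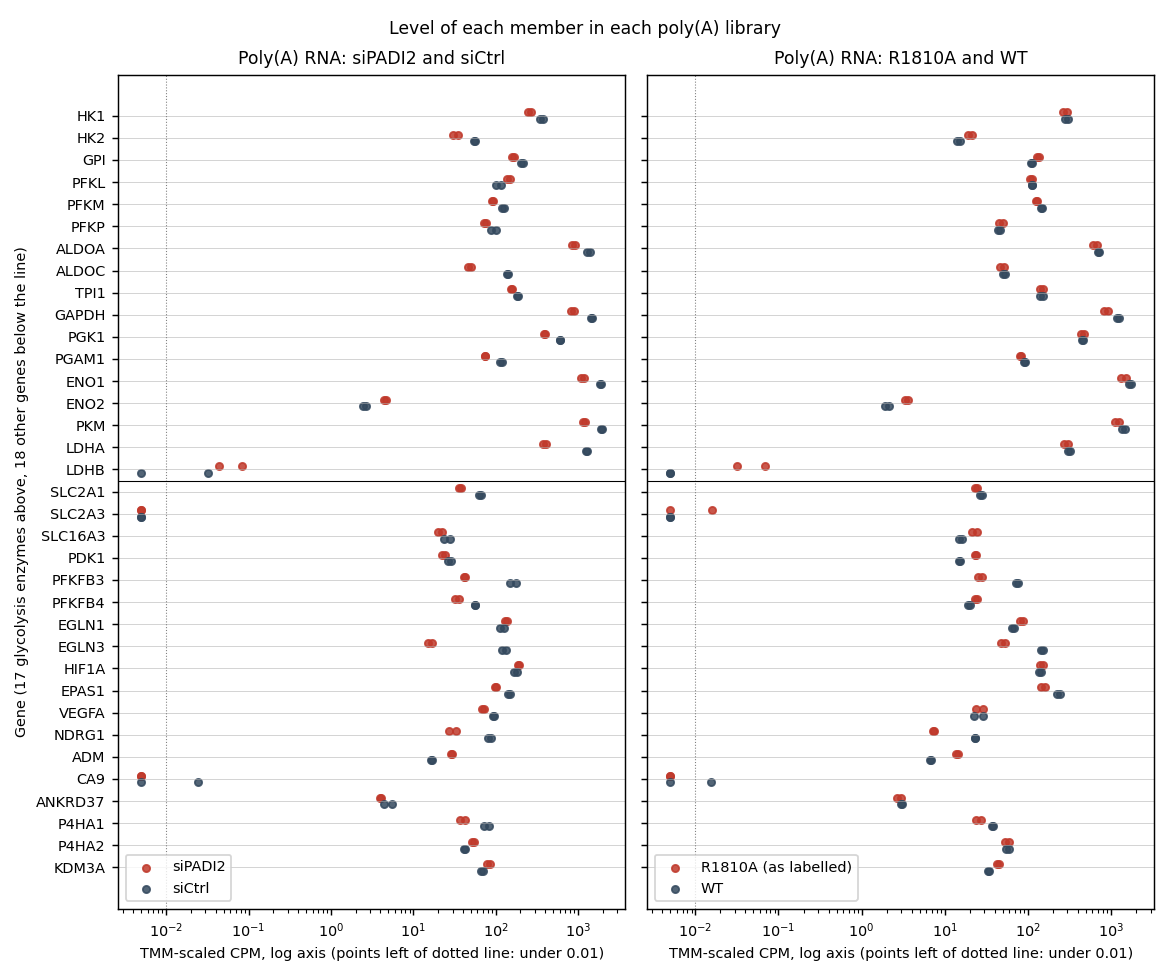
Level of each of the 35 genes in each poly(A) library (TMM-scaled CPM, log axis), with siPADI2 and siCtrl on the left and the libraries labelled R1810A and WT on the right; each point is 1 library and points left of the dotted line are under 0.01 CPM. In the left panel the siPADI2 points lie left of the siCtrl points for most genes, with the widest gaps for EGLN3, PFKFB3, LDHA and ALDOC, while PFKL, ENO2 and ADM lie to the right.

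Among the other HIF targets and pathway genes, 16 of 18 were tested after siPADI2 in poly(A) RNA. Of these, 11 fell, 3 rose (ADM, P4HA2 and KDM3A) and 2 were not called (EGLN1 and HIF1A), where 27.9% of all genes tested fell and 28.8% rose. Their median log2 fold change was −0.39, against 0.005 for all genes tested. The largest fall of all members was that of EGLN3 (ENSG00000129521.9, hg19 chromosome 14 from 34393437 to 34931980), an oxygen-dependent hydroxylase that HIF itself induces. EGLN3 had 15.2 and 16.95 CPM in siPADI2 cells, against 119 and 132 CPM in siCtrl cells. The groups lay far apart, and its fold was 0.128 (log2 fold change −2.96, SE 0.0928, adjusted p = 1.82e-26). EGLN1, the main HIF prolyl hydroxylase, had 131 and 139 CPM in siPADI2 cells, against 113 and 126 CPM in siCtrl cells, groups that did not overlap but did not pass the test (0.18, adjusted p = 0.0717). It passed without siCtrl replicate 2 (0.26, adjusted p = 0.0172).

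PFKFB3 makes the sugar bisphosphate that activates phosphofructokinase. It had 42.3 and 41.4 CPM in siPADI2 cells, against 175 and 151 CPM in siCtrl cells (log2 fold change −1.96, SE 0.0878, adjusted p = 2.37e-21). NDRG1, a stress-induced gene, had 27.1 and 32.9 CPM in siPADI2 cells, against 88.9 and 80.5 CPM in siCtrl cells (−1.50, SE 0.0934, adjusted p = 1.14e-15). Neither gene's groups overlapped. PFKFB4, a related bifunctional enzyme, fell by 0.73 on the log2 scale (adjusted p = 5.61e-09).

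For uptake and export of carbon, the glucose transporter SLC2A1 had 38.2 and 36.0 CPM in siPADI2 cells, against 66.0 and 62.9 CPM in siCtrl cells (log2 fold change −0.80, adjusted p = 3.06e-10). The related transporter SLC2A3 had 0 fragments in all 4 of these libraries. The lactate exporter SLC16A3 (−0.27, adjusted p = 0.0209) and the pyruvate dehydrogenase kinase PDK1 (−0.25, adjusted p = 0.0243) fell slightly. SLC16A3 lost its call without siCtrl replicate 1 (−0.15, adjusted p = 0.271) or siPADI2 replicate 2 (−0.20). PDK1 lost it without siCtrl replicate 2 or siPADI2 replicate 1 (−0.19 in each).

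HIF1A and EPAS1 encode the oxygen-regulated alpha subunits, which are controlled mainly at the protein level. HIF1A had 189 and 191 CPM in siPADI2 cells, against 168 and 183 CPM in siCtrl cells, and was not called (log2 fold change 0.11, adjusted p = 0.244). EPAS1 had 101 and 97.0 CPM in siPADI2 cells, against 150 and 141 CPM in siCtrl cells, and fell (−0.56, SE 0.0821, adjusted p = 2.42e-07). The siPADI2 libraries lay on opposite sides of the siCtrl libraries for these 2 genes. VEGFA, the vascular growth factor, fell by 0.43 (adjusted p = 3.04e-05) and the ankyrin repeat gene ANKRD37, at 4.02 and 3.91 CPM in siPADI2 cells and 4.46 and 5.47 CPM in siCtrl cells, by 0.35 (adjusted p = 0.0294), a call that DESeq2 (adjusted p = 0.0843) did not make and that was lost without siCtrl replicate 2 (−0.17) or either siPADI2 library.

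The pair of collagen prolyl hydroxylase subunits diverged. P4HA1 had 36.9 and 42.4 CPM in siPADI2 cells, against 72.3 and 83.6 CPM in siCtrl cells (log2 fold change −0.98, SE 0.0907, adjusted p = 1.35e-11). P4HA2 had 54.6 and 52.3 CPM in siPADI2 cells, against 42.7 and 41.7 CPM in siCtrl cells (0.34, adjusted p = 8.85e-04). No groups overlapped, and the order of the 2 subunits by CPM per kilobase was kept, with 12.4 (P4HA1) and 6.29 (P4HA2) in siPADI2 cells and 24.5 and 4.97 in siCtrl cells. ADM, the vasodilator peptide adrenomedullin, rose to 29.4 and 28.3 CPM in siPADI2 cells, against 16.7 and 16.6 CPM in siCtrl cells (0.80, SE 0.0976, adjusted p = 5.40e-09). The histone demethylase gene KDM3A rose by 0.26 (adjusted p = 0.00729), and without siPADI2 replicate 2 it was not called (0.20, adjusted p = 0.174). CA9, a carbonic anhydrase often used as a hypoxia marker, had 3 fragments in 1 siCtrl library and 0 in the other 3.

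Genes of the same pathways outside the 35 moved in both directions. Of all genes tested, 27.9% fell and 28.8% rose. Of 25 further HIF targets 13 fell and 6 rose, among them the chemokine receptor CXCR4 (−3.14), the lipoprotein lipase inhibitor ANGPTL4 (−2.26) and HILPDA (−1.50) as the largest falls and LOX, a collagen cross-linking enzyme (1.88), TMEM45A (1.80) and ZNF395 (0.60) as the largest rises. Of 12 tested genes for HIF partners and oxygen sensing 6 fell and 2 rose, including CITED2, a competitor of HIF for its coactivator (−0.89), CUL2 of the VHL ubiquitin ligase (−0.82), ARNT2 (−0.62), VHL (0.34) and ARNT (0.26). Among 20 further genes of glycolysis and pyruvate use 7 fell and 5 rose, with PDHB (−0.79), FBP1 (−0.61) and BSG (−0.52) lower and PDP1 (1.33), SLC16A1 (1.19) and PGM1 (0.66) higher. In the pentose phosphate pathway, which branches off at glucose phosphate, 4 of 8 fell and 3 rose, with PGD (−1.10), RPE (−0.67) and H6PD (−0.51) lower and RPIA (1.04), TKT (0.49) and PGLS (0.27) higher. The medians of these lists were −0.23, −0.22, 0.14 and −0.23. All values of single genes in this paragraph are log2 fold changes that passed the test, of siPADI2 over siCtrl.

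When libraries were scaled by total counts alone, the log2 fold changes after siPADI2 moved up by a median of 0.18, 19 members were called lower and 7 higher, and 67% of all genes called were higher, against 50.8% with TMM. Under that scaling GPI, PFKP, TPI1, SLC16A3, PDK1 and ANKRD37 were not called, and EGLN1 and HIF1A were called higher.

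The second poly(A) comparison concerned an RNAP2 with the R1810A substitution. POLR2A, which encodes its largest subunit, had 360.5 and 362.7 CPM in the libraries labelled R1810A, against 514 and 528 CPM in the WT libraries. Its log2 fold change was −0.53 (adjusted p = 3.03e-05), and after siPADI2 it was −0.53 as well (adjusted p = 5.07e-06). The part of this fall in the members' changes was not tested. In the libraries labelled R1810A, relative to WT, the members split. Of 32 tested, 11 fell and 9 rose, where 24.3% of all 19202 genes tested fell and 22.6% rose, with a median log2 fold change of −0.06 for the enzymes and 0.01 for the other genes. The count of falls was not stable: it was 6 without WT replicate 2, and 7 without WT replicate 1 or without replicate 1 labelled R1810A. The rises numbered 8 or 9 in each of these fits.

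The largest falls were those of EGLN3, NDRG1 and PFKFB3, the largest rises those of ADM and ENO2. EGLN3 had 48.0 and 52.7 CPM in the libraries labelled R1810A, against 145 and 151 CPM in the WT libraries (log2 fold change −1.56, SE 0.0650, adjusted p = 1.47e-09). NDRG1 had 7.17 and 7.50 CPM in the libraries labelled R1810A, against 23.2 and 23.3 CPM in the WT libraries (−1.66, SE 0.0735, adjusted p = 2.27e-09). PFKFB3 had 24.9 and 28.2 CPM in the libraries labelled R1810A, against 71.7 and 76.4 CPM in the WT libraries (−1.48, SE 0.0715, adjusted p = 1.06e-08). The groups were widely separated for all 3. ADM rose to 13.5 and 14.5 CPM in the libraries labelled R1810A, against 6.84 and 6.75 CPM in the WT libraries (1.04, SE 0.0817, adjusted p = 3.40e-07). ENO2 rose to 3.36 and 3.61 CPM in the libraries labelled R1810A, against 2.13 and 1.89 CPM in the WT libraries (0.79, SE 0.129, adjusted p = 2.25e-04).

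LDHA and ALDOC, the enzymes that fell most after siPADI2, did not pass here. LDHA had 276 and 301 CPM in the libraries labelled R1810A, against 307 and 318 CPM in the WT libraries, a log2 fold change of −0.11 that did not pass (SE 0.0691, adjusted p = 0.196). ALDOC had 46.9 and 51.4 CPM in the libraries labelled R1810A, against 50.2 and 52.8 CPM in the WT libraries (−0.07, adjusted p = 0.432). PGK1 did not pass either (0.01, adjusted p = 0.941). The ALDOC groups overlapped and the LDHA groups did not.

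Among the remaining isozymes, HK1 had 263 and 299 CPM in the libraries labelled R1810A, against 284 and 302 CPM in the WT libraries (log2 fold change −0.06, not called). HK2 rose to 19.2 and 21.4 CPM in the libraries labelled R1810A, against 14.2 and 15.3 CPM in the WT libraries (0.46, adjusted p = 2.95e-04). So the hexokinase groups overlapped for HK1 and not for HK2. PFKL had 107 and 112 CPM in the libraries labelled R1810A and 113 CPM in both WT libraries (−0.04), PFKM 128 and 127 against 144 and 147 CPM (−0.19), and PFKP 45.2 and 50.2 against 43.6 and 46.0 CPM (0.09). Of these 3 only PFKM was called (adjusted p = 0.0152), and it lost the call without WT replicate 1 (−0.21, adjusted p = 0.124) or WT replicate 2 (−0.17, adjusted p = 0.0525). ALDOA had 605 and 673 CPM in the libraries labelled R1810A, against 692 and 715 CPM in the WT libraries, and was not called (−0.14). ENO1 had 1341 and 1508 CPM in the libraries labelled R1810A, against 1668 and 1764 CPM in the WT libraries (−0.27, adjusted p = 0.0338). Both ALDOA and ENO1 were lower in each library labelled R1810A than in each WT library.

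Other enzymes were GAPDH (−0.49, adjusted p = 5.63e-04), PKM (−0.27, adjusted p = 0.0277) and PGAM1 (−0.16, adjusted p = 0.0388), which fell, GPI (0.27, adjusted p = 0.00211), which rose, and TPI1 (0.01), which was not called. LDHB had 4 and 9 fragments in the libraries labelled R1810A and 1 in each WT library. The falls of ENO1, PKM and PGAM1 were lost in each fit without a WT library or without replicate 1 labelled R1810A, with log2 fold changes from −0.18 to −0.31 for ENO1, −0.19 to −0.32 for PKM and −0.11 to −0.20 for PGAM1.

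SLC2A1 had 23.2 and 24.4 CPM in the libraries labelled R1810A, against 26.8 and 28.4 CPM in the WT libraries (log2 fold change −0.22, adjusted p = 0.0170), and lost its call without replicate 1 labelled R1810A (−0.18) or WT replicate 2 (−0.16). SLC2A3 had at most 2 fragments and CA9 at most 2 in any of the 4 libraries. SLC16A3 (0.54), PDK1 (0.64) and PFKFB4 (0.28), all lower after siPADI2, were higher in the libraries labelled R1810A, with adjusted p from 4.70e-06 to 0.00396. PFKFB4 was not called without WT replicate 1 (0.24, adjusted p = 0.0768).

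EGLN1 had 80.9 and 87.6 CPM in the libraries labelled R1810A, against 63.9 and 67.5 CPM in the WT libraries, and rose (log2 fold change 0.36, adjusted p = 3.66e-04). HIF1A had 141 and 154 CPM in the libraries labelled R1810A, against 136 and 143 CPM in the WT libraries, with overlapping groups (0.08, adjusted p = 0.328). EPAS1 had 146 and 160 CPM in the libraries labelled R1810A, against 227 and 247 CPM in the WT libraries (−0.63, adjusted p = 7.34e-06). P4HA1 had 24.2 and 27.1 CPM in the libraries labelled R1810A, against 38.3 and 36.8 CPM in the WT libraries (−0.55, adjusted p = 2.86e-05). P4HA2 had 53.4 and 59.7 CPM in the libraries labelled R1810A, against 54.6 and 58.9 CPM in the WT libraries (−0.0056, not called). Thus EPAS1 and P4HA1 fell, while HIF1A and P4HA2 had overlapping groups. KDM3A rose by 0.41 (adjusted p = 1.12e-04), and VEGFA (0.03) and ANKRD37 (−0.08) were not called.

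Outside the members, 10 of 25 further HIF targets fell and 8 rose in the libraries labelled R1810A, led by STC2, a secreted glycoprotein (−2.31), CXCR4 (−1.67) and HILPDA (−1.09), and by LOX (2.18), TMEM45A (1.79) and INSIG2 (0.64). Of the 12 tested HIF partners and oxygen sensors 5 fell and 1 rose, with ARNT2 (−0.44), CITED2 (−0.39) and CUL2 (−0.39) lower and ARNT (0.19) higher. Further glycolysis and pyruvate genes rose in 9 of 20 cases and fell in 3, with PDK4 (1.44), PDP1 (1.12) and PGM1 (0.98) the largest rises and PDK2 (−0.29), PFKFB2 (−0.24) and PCK2 (−0.21) the falls. Of 8 pentose phosphate genes 4 fell, among them H6PD (−0.82), RPE (−0.61) and PGD (−0.45), and 2 rose, RPIA (0.74) and PGLS (0.44). The medians were −0.01, −0.17, 0.12 and −0.02. Of all genes tested, 24.3% fell and 22.6% rose.

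Side by side, all 11 members that fell in the libraries labelled R1810A also fell after siPADI2, where they were 44% of the 25 that fell. Among all 18260 genes tested in both comparisons, 65.5% of those lower in the libraries labelled R1810A were also lower after siPADI2, and 57.8% the other way round. The members' overlap partly follows from the 25 of 32 tested members that fell after siPADI2. The 11 members were PFKM, GAPDH, PGAM1, ENO1, PKM, SLC2A1, PFKFB3, EGLN3, EPAS1, NDRG1 and P4HA1. Under GC correction, and likewise with total counts, PFKM, PGAM1, ENO1, PKM and SLC2A1 lost the call in the libraries labelled R1810A, which left 6. ENO2, ADM and KDM3A rose in both. HK2, GPI, SLC16A3, PDK1 and PFKFB4 fell after siPADI2 and rose in the libraries labelled R1810A. No libraries are shared between these comparisons.

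The difference itself was tested as an interaction in a joint fit of the 8 poly(A) libraries. Of 32 members tested, 20 had a lower log2 fold change after siPADI2 than in the libraries labelled R1810A and 2 a higher one, where 14.3% and 11.8% of all 19884 genes tested did. LDHA differed most (−1.61, SE 0.102, adjusted p = 1.45e-07), then ALDOC (−1.50), EGLN3 (−1.43), HK2 (−1.24), PFKFB4 (−1.03), PDK1 (−0.92), SLC16A3 (−0.84), PGK1 (−0.67), GPI (−0.64) and SLC2A1 (−0.61). For EGLN3 both effects were falls and the one after siPADI2 was larger. Reference levels differed between the experiments, each scaled within its own comparison. LDHA averaged 1259 CPM in siCtrl cells and 312 CPM in the WT libraries, ALDOC 139 and 51.5, and HK2 55.1 and 14.7. EGLN3 went the other way, with 125 and 148 CPM. The part of these starting levels in the differences was not tested. The differences of PGAM1 (−0.51), PFKFB3 (−0.50), ALDOA (−0.49), PKM (−0.48), ENO1 (−0.47), PFKP (−0.46), P4HA1 (−0.45), HK1 (−0.45), TPI1 (−0.29) and PFKM (−0.27) also passed, as did those of PFKL (0.42) and P4HA2 (0.32) in the other direction. NDRG1 (0.14, adjusted p = 0.445), EPAS1 (0.05, adjusted p = 0.760), ENO2 (0.01, adjusted p = 0.972) and HIF1A (0.01, adjusted p = 0.966) were not shown to differ. GAPDH (−0.28), VEGFA (−0.49), ADM (−0.27), ANKRD37 (−0.29), EGLN1 (−0.21) and KDM3A (−0.17) did not pass either. Without replicate 2 labelled R1810A, HK1, PFKM, ALDOA, TPI1, ENO1, PKM and P4HA1 lost the call, and 14 members had a lower effect. PFKM, TPI1 and P4HA1 also lost it in fits without another library. Under other processing PFKM and TPI1 lost it with RLE factors, total counts, no filter and GC correction, TPI1 also with DESeq2, ENO1 with total counts and GC correction, and P4HA1 with total counts. P4HA2 lost it without replicate 1 labelled R1810A, WT replicate 2, siCtrl replicate 2 or siPADI2 replicate 1, which left PFKL as the 1 higher member.

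**Figure D2:**
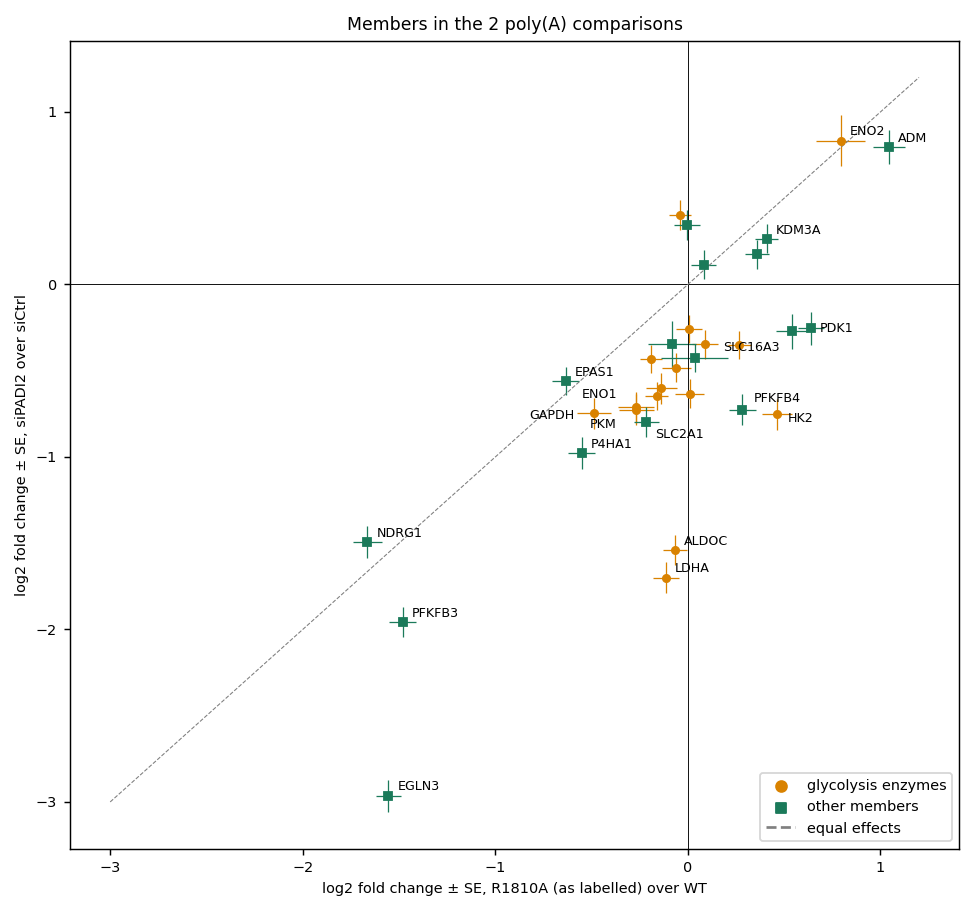
Log2 fold change of each tested member after siPADI2 (vertical axis) against that in the libraries labelled R1810A (horizontal axis), with SE bars; orange circles are glycolysis enzymes, green squares the other members, and the dashed line marks equal effects. NDRG1, EPAS1, ENO2 and ADM lie on or near the line, LDHA and ALDOC far below it at −0.11 and −0.07 on the horizontal axis, and HK2, GPI, SLC16A3, PDK1 and PFKFB4 in the lower right.

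Chromatin-bound RNA, which holds transcripts still attached to the template, was compared after siPADI2 to ask whether the falls are seen at that stage. All 35 members were tested. Of them 15 fell and none rose, where 20.1% of all 33879 genes tested fell and 12.2% rose, and at an unadjusted p under 0.05 the count of rises was 0 as well. No rise was called by DESeq2 either. Both siPADI2 chromatin libraries were shallower than both siCtrl ones (2.8 and 2.72 against 7.04 and 6.67 times 1e+06 fragments). An effect of the siRNA and a difference between these sets of libraries cannot be told apart here. The chromatin libraries also show a trend with base composition that bears on each value. In 5 equal bins of GC content from low to high, the median log2 fold change of all genes tested ran 0.45, 0.38, 0.12, −0.42 and −0.98. The members' transcripts had a median GC content of 52.8%, against 47.8% for all genes tested. After a correction for GC content 8 of the 35 members were called lower, where 2412 of all 32228 genes tested were. Only 3 of these 8 members (PFKP, LDHA and SLC2A1) were among the 15, so both values are given.

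LDHA had 120 and 77.2 CPM in siPADI2 chromatin, against 196 and 176 CPM in siCtrl chromatin (log2 fold change −0.91, SE 0.236, adjusted p = 9.88e-04). Its GC content of 44.0% lies on the side where genes at large were higher, and after correction its value was −1.24 (adjusted p = 0.00132). Without siPADI2 replicate 2 it was −0.62 and did not pass (adjusted p = 0.163). PFKP had 28.4 and 26.2 CPM in siPADI2 chromatin, against 71.7 and 83.5 CPM in siCtrl chromatin (−1.51, SE 0.215, adjusted p = 2.31e-10, and −0.68 after correction). SLC2A1 had 9.94 and 10.3 CPM in siPADI2 chromatin, against 27.1 and 28.6 CPM in siCtrl chromatin (−1.46, SE 0.257, adjusted p = 4.76e-07, and −0.87 after correction). For these 3 genes the groups did not overlap and the call held with and without the correction.

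The other falls lost their call after the correction. CA9 had 2.13 and 2.48 CPM in siPADI2 chromatin, against 6.97 and 11.6 CPM in siCtrl chromatin (log2 fold change −2.01, SE 0.451, −1.03 after correction). PFKFB3 had 36.6 and 33.0 CPM in siPADI2 chromatin, against 73.3 and 79.5 CPM in siCtrl chromatin (−1.14, −0.46 after correction). ALDOC had 27.7 and 18.8 CPM in siPADI2 chromatin, against 41.2 and 54.6 CPM in siCtrl chromatin (−1.04, −0.28 after correction). The groups did not overlap for any of these, and both siPADI2 libraries were low. The same held for GAPDH (−1.02, −0.13 after correction), PFKFB4 (−1.01, −0.25), TPI1 (−0.84, −0.03), EPAS1 (−0.75, −0.39), ALDOA (−0.64, −0.10), NDRG1 (−0.63, −0.31) and HK1 (−0.50, −0.10). PFKL (−1.02, 0.10 after correction) and SLC16A3 (−1.02, 0.05), the 2 members richest in GC, changed sign. Counts on GAPDH pseudogenes came to 29.1% of the gene's own in chromatin RNA, and those on TPI1 pseudogenes to 15.1%, so these 2 are uncertain.

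By library, HK1 had 44.0 and 46.8 CPM in siPADI2 chromatin, against 68.9 and 59.6 CPM in siCtrl chromatin, PFKL 50.8 and 43.6 against 85.9 and 105 CPM, and ALDOA 172 and 133 against 251 and 226 CPM. EPAS1 had 29.5 and 26.9 CPM in siPADI2 chromatin, against 46.7 and 48.3 CPM in siCtrl chromatin. All of these lay lower in both siPADI2 libraries. Without siPADI2 replicate 2 the count of falls was 9, and HK1, ALDOA, GAPDH, LDHA, EPAS1 and NDRG1 were not called, with adjusted p from 0.0623 to 0.350. HK1, ALDOA and NDRG1 also lost the call without siCtrl replicate 1 or replicate 5, and HK1 and TPI1 without siPADI2 replicate 1.

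EGLN3, which fell most in poly(A) RNA, had 54.7 and 45.0 CPM in siPADI2 chromatin, against 61.6 and 55.4 CPM in siCtrl chromatin. The log2 fold change was −0.23 and did not pass (SE 0.204, adjusted p = 0.397, and −0.19 after GC correction). EGLN1 had 76.7 and 57.8 CPM in siPADI2 chromatin, against 70.4 and 49.8 CPM in siCtrl chromatin (0.16, not called). Both EGLN3 values in siPADI2 chromatin lay just below both in siCtrl chromatin, and the EGLN1 groups overlapped.

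The remaining isozymes were not called in chromatin RNA. HK2 had 24.1 and 30.5 CPM in siPADI2 chromatin, against 36.2 and 34.3 CPM in siCtrl chromatin (log2 fold change −0.37). PFKM had 87.3 and 84.3 CPM in siPADI2 chromatin, against 77.7 and 74.2 CPM in siCtrl chromatin (0.18). ENO1 had 341 and 252 CPM in siPADI2 chromatin, against 390 and 366 CPM in siCtrl chromatin (−0.35). HK2 and ENO1 lay lower and PFKM higher in both siPADI2 libraries, without passing the test. ENO2 had 7.45 and 6.02 CPM in siPADI2 chromatin, against 6.97 and 6.33 CPM in siCtrl chromatin (0.02). HIF1A had 71.7 and 52.1 CPM in siPADI2 chromatin, against 71.7 and 60.7 CPM in siCtrl chromatin (−0.10). These groups overlapped. P4HA1 had 30.2 and 25.9 CPM in siPADI2 chromatin, against 40.9 and 32.1 CPM in siCtrl chromatin (−0.38), and P4HA2 72.4 and 62.7 against 57.4 and 56.1 CPM (0.25). P4HA1 lay lower and P4HA2 higher in both siPADI2 libraries, without passing the test.

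Further members without a call were GPI (−0.40), PGK1 (−0.44), PGAM1 (−0.38), PKM (−0.51), VEGFA (−0.41), ADM (−0.39), ANKRD37 (−0.74), KDM3A (−0.37) and PDK1 (0.26). After GC correction PGK1 (−0.79, adjusted p = 0.0335), HIF1A (−0.57, adjusted p = 0.0473), ANKRD37 (−1.13, adjusted p = 0.0278), P4HA1 (−0.79, adjusted p = 0.00624) and KDM3A (−0.75, adjusted p = 0.00909) were called lower. Counts on PGAM1 pseudogenes exceeded those of PGAM1 itself in chromatin RNA (117%).

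**Figure D3:**
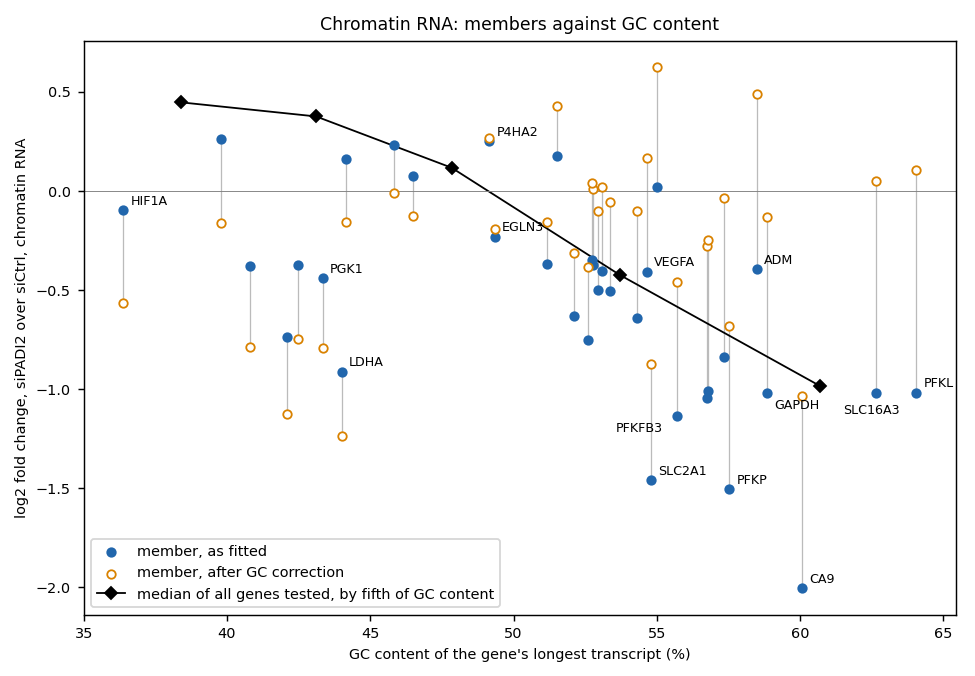
Log2 fold change of the 35 members in chromatin RNA (siPADI2 over siCtrl) against the GC content of each gene's longest transcript, as fitted (blue) and after GC correction (open orange), with the median of all genes tested in 5 bins of GC content (black diamonds). The medians run from 0.45 to −0.98; LDHA lies well below the line at its GC content, while GAPDH, SLC16A3 and PFKL lie near it.

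Some members had chromatin counts at levels also seen for genes with no poly(A) RNA. The 5476 genes of at least 1 kilobase of exon without a count in the 4 siRNA poly(A) libraries had a median chromatin level of 1.56 to 1.88 CPM per kilobase and a 90th percentile of up to 5.53, and 83.8% to 86.9% of them had a count. Of the members, 8 lay under that percentile in both groups: ENO2, SLC2A3, PDK1, PFKFB4, VEGFA, ADM, ANKRD37 and KDM3A. A further 7, HK2, GPI, PFKL, SLC2A1, SLC16A3, EPAS1 and CA9, lay under it in 1 group. SLC2A1 stood at 2.40 CPM per kilobase in siPADI2 chromatin and 6.61 in siCtrl chromatin, so its siPADI2 level is one that such genes also reach. CA9 stood at 1.38 CPM per kilobase in siPADI2 chromatin and 5.57 in siCtrl chromatin, and SLC2A3 at 1.47 and 1.24. LDHB had 17.04 and 20.6 CPM in siPADI2 chromatin, against 15.7 and 19.9 CPM in siCtrl chromatin, or 6.30 and 5.97 CPM per kilobase. SLC2A3 had 8.16 and 9.92 CPM in siPADI2 chromatin, against 6.49 and 8.83 CPM in siCtrl chromatin. LDHB (log2 fold change 0.08) and SLC2A3 (0.23) had overlapping groups and were not called. Reads of SLC2A3 and its pseudogenes are hard to tell apart, with pseudogene counts at 57.6% of its own.

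Outside the 35, chromatin RNA of 7 of 25 further HIF targets fell and 5 rose, with falls of DDIT4 (−1.22), BHLHE40 (−1.21) and KDM4B (−1.04) and rises of TMEM45A (1.18), LOX (0.73) and FAM162A (0.69). Of the 13 HIF partners and oxygen sensors 6 fell and 3 rose, where ELOB (−1.05), EGLN2 (−0.81) and ARNT2 (−0.77) fell and ARNT (0.59), ELOC (0.57) and HIF3A (0.56) rose. PDK2 (−0.996), BSG (−0.67), PGLS (−1.15) and H6PD (−0.72) were among the falls in 2 of 21 further glycolysis and pyruvate genes and 4 of 8 pentose phosphate genes. These values are without GC correction, and 20.1% of all genes tested fell and 12.2% rose in that fit. The luminal markers summed to 1640 and 1149 CPM in siPADI2 chromatin, against 2541 and 2368 CPM in siCtrl chromatin, and 4 of 9 fell. The mesenchymal markers summed to 83.1 and 99.9 CPM in siPADI2 chromatin, against 171 and 183 CPM in siCtrl chromatin, with 2 of 4 lower, and the 2 endothelial ones, both lower, to 11.4 and 19.5 CPM, against 39.6 and 41.7 CPM. The leukocyte markers, none called, summed to 84.1 and 80.1 CPM in siPADI2 chromatin, against 67.6 and 70.7 CPM in siCtrl chromatin. Their part in the members' changes was not tested.

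Of the 15 members that fell in chromatin RNA, 13 (86.7%) also fell in poly(A) RNA after siPADI2, where they were 52% of the 25 falls. Among all 17438 genes tested in both fractions these shares were 37.5% and 30.2%. As 25 of the 32 members tested in poly(A) RNA fell there whatever their chromatin call, the overlap does not measure agreement between the fractions. The chromatin calls here are without GC correction, after which 3 of the 15 kept their call. PFKL fell in chromatin RNA and rose in poly(A) RNA, and CA9 was not tested in poly(A) RNA. Tested as an interaction over the 8 libraries, the siPADI2 effect was higher in chromatin than in poly(A) RNA for 1 member and lower for 3, where 1.71% and 6.34% of all 44615 genes tested were. The median difference over all these genes was −0.16, an offset that each value below carries. EGLN3 was the 1 higher (2.54, SE 0.381, adjusted p = 7.18e-09). PFKL (−1.64, adjusted p = 6.55e-04), PFKP (−1.37, adjusted p = 0.00763) and ADM (−1.39, adjusted p = 0.0155) were the 3 lower. After GC correction EGLN3 kept its call (2.76) and the other 3 did not (−0.24 for PFKL, −0.29 for PFKP and −0.25 for ADM). PFKP and ADM also lost it without siPADI2 poly(A) replicate 1 or 2, which left 1 lower member. The counts moved with other single libraries as well. Without siCtrl chromatin replicate 1 or 5 the higher members numbered 7 and 3, without siPADI2 chromatin replicate 1 or 2 they numbered 3 and 8, and without siCtrl poly(A) replicate 1 they numbered 4. The lower members numbered 9 without siCtrl poly(A) replicate 2 and 5 without either siPADI2 chromatin library. LDHA (0.59, adjusted p = 0.528) and ALDOC (0.30, adjusted p = 0.993) were not shown to differ between the fractions, with an SE of 0.388 and 0.390.

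**Figure D4:**
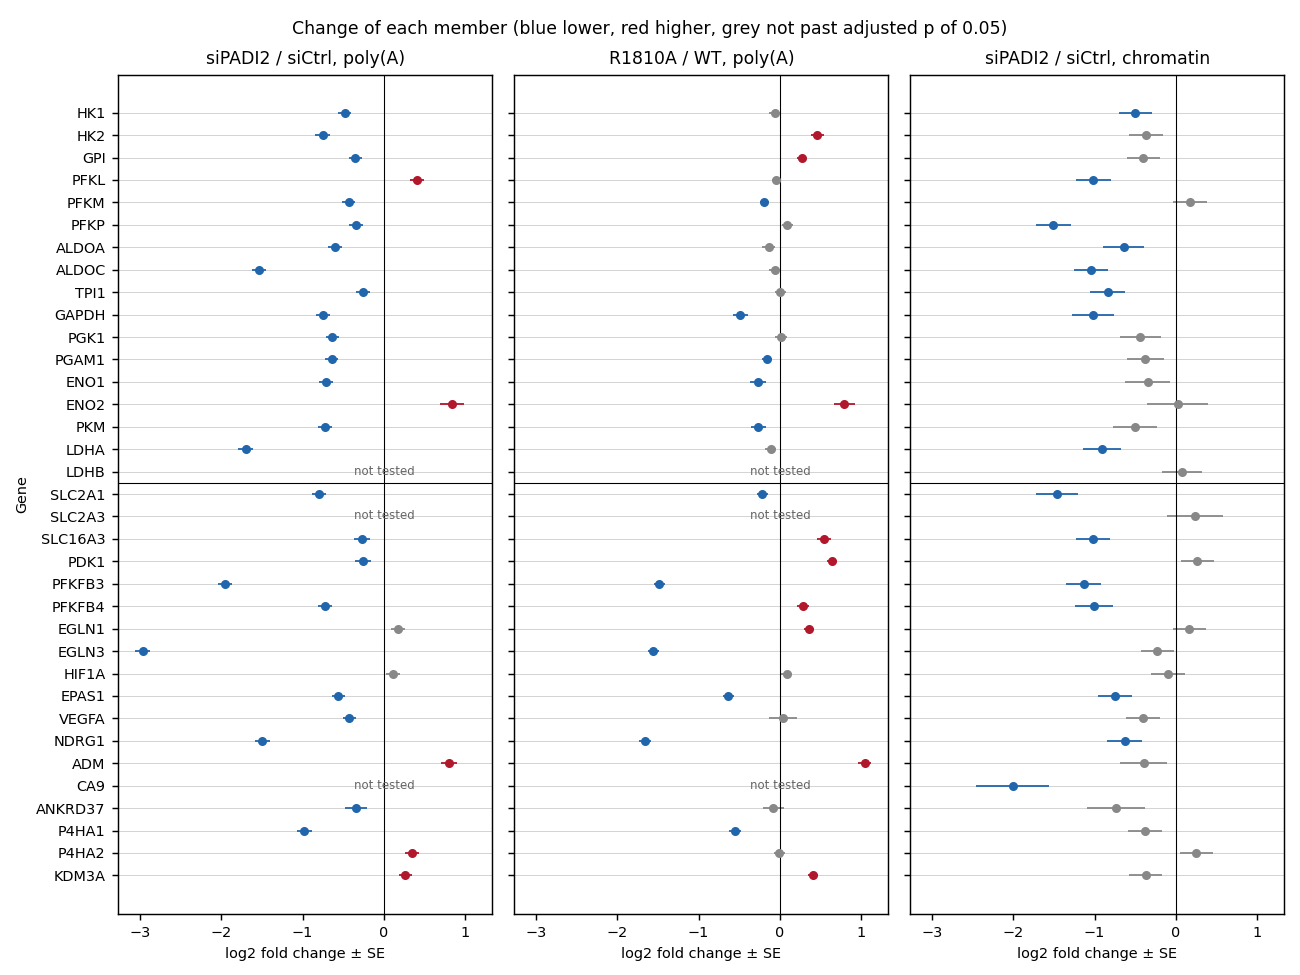
Log2 fold change with SE of each member in the 3 comparisons (siPADI2 over siCtrl in poly(A) RNA, R1810A as labelled over WT in poly(A) RNA, siPADI2 over siCtrl in chromatin RNA), without GC correction; blue points were called lower, red higher, grey not called. EGLN3 stands at −2.96, −1.56 and −0.23 in the 3 panels, and LDHA at −1.70, −0.11 and −0.91.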

How the data were processed

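The tables deposited by the authors give raw fragment counts by gene for each library. Per the file headers they come from STAR alignments counted with featureCounts 1.5.1 (poly(A) RNA) or 1.4.6-p2 (chromatin RNA), strand option 2, on GENCODE 19 genes of hg19. Reads were trimmed with Trimmomatic, per the submitters' processing notes. No header option counts multi-mapping reads, so genes with near-identical copies can lose reads, and intron reads are not counted. Coordinates of genes are hg19, those of promoter windows GRCh38.p14, both used as given.

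Symbols were matched by gene identifier to GENCODE 29 (52338 of 57820 genes), whose longest transcript gave GC content. Each comparison was fitted over all genes on its own 4 libraries with edgeR 4.0.16 in R 4.3.3 (TMM, filterByExpr with its minimum count of 10, robust quasi-likelihood F test), with Benjamini-Hochberg adjustment and a threshold of 0.05. Differences between effects were interaction contrasts over 8 libraries. Alternatives were RLE factors, total counts, no filter, DESeq2 1.42.0, a joint fit, a GC correction (loess span 0.5), each library left out, and the replicate number as a block. The calls were tested on simulated data with known changes. That simulation held no GC trend, so it cannot speak for the chromatin calls that GC correction removed. It also gave every gene the same spread between libraries, so it cannot speak for genes that vary more.

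All 35 members are named with their values. Values by library are given for the 5 called members with the largest change in each comparison and for isozyme pairs, and up to 3 genes per direction come from each further list, of which 1 is not reported here. Members and lists were chosen with earlier results of these data known. Nothing in the labels says that a group's libraries are separate cultures, so p-values reflect only how these libraries vary, possibly technically. No 2 libraries of a group agreed within sampling noise. PECAM1 was not matched. Sequences are RefSeq's.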

Additional observations from a re-analysis of the deposited data

Results flagged for a closer look

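The siPADI2 effect differed between chromatin RNA and poly(A) RNA for 4 members, by an interaction test over 8 libraries. The log2 difference, chromatin minus poly(A), was 2.54 for EGLN3, −1.64 for PFKL, −1.37 for PFKP and −1.39 for ADM. Its median over all 44615 genes tested was −0.16. EGLN3 had 54.7 and 45.0 CPM in siPADI2 chromatin, against 61.6 and 55.4 CPM in siCtrl chromatin, while its poly(A) RNA had 15.2 and 16.95 CPM in siPADI2 cells, against 119 and 132 CPM in siCtrl cells. Its difference kept its call after GC correction (2.76). PFKL was 50.8 and 43.6 CPM in siPADI2 chromatin, against 85.9 and 105 CPM in siCtrl chromatin, and rose in poly(A) RNA. The differences of PFKL, PFKP and ADM were −0.24, −0.29 and −0.25 after GC correction and not called. The chromatin libraries were shallower and their values trend with GC content, and the part of either in these differences was not tested beyond that correction.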

How the results depend on the processing

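The counts of members called after siPADI2 in poly(A) RNA (25 lower, 5 higher) stayed within 1.5 times under every alternative run, from 19 to 25 lower and 4 to 7 higher. HIF1A, not called there, turned to −0.062 after GC correction. Of 352 gene values recomputed in this comparison, 325 kept direction and call, 20 lost a call and 6 gained one.

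In the libraries labelled R1810A against WT the count of members called lower (11) was 7 with RLE factors, 6 with total counts and 6 after GC correction, and 6 to 11 with each library left out. Members near 0 and not called changed sign. With total counts HK1 was 0.0019, PFKL 0.021 and P4HA2 0.057. P4HA2 was 0.010 with RLE factors and with DESeq2, and 0.033 in the joint fit of the 8 poly(A) libraries. With no filter TPI1 was −5e-04. GC correction gave HK1 0.0020, PFKL 0.031, ALDOC 0.013, PGK1 −0.034, HIF1A −8e-04 and P4HA2 0.016. With each library left out the range was −0.15 to 0.031 for HK1, −0.13 to 0.0015 for ALDOC, −0.068 to 0.081 for TPI1 and −0.064 to 0.082 for PGK1. It was −0.11 to 0.21 for VEGFA, −0.16 to 0.0024 for ANKRD37 and −0.089 to 0.077 for P4HA2.

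In chromatin RNA the count called lower (15) was 8 after GC correction and 9 to 13 with each library left out. GC correction turned 2 called members, PFKL (0.10) and SLC16A3 (0.051), and members not called: GPI 0.018, PGAM1 0.012, ENO1 0.039, LDHB −0.13, SLC2A3 −0.011, PDK1 −0.16, EGLN1 −0.16, VEGFA 0.16 and ADM 0.49. HIF1A was 0.023 with total counts and ENO2 −0.044 with no filter. With each library left out the range was −0.15 to 0.17 for ENO2, −0.082 to 0.22 for LDHB, −0.11 to 0.43 for EGLN1 and −0.35 to 0.12 for HIF1A.

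For the difference between the siPADI2 and R1810A effects the count of higher members (2) was 1 with DESeq2 and 1 to 2 with each library left out. For chromatin minus poly(A) the count of higher members (1) was 8 with RLE factors, 4 with total counts, 10 with DESeq2 and 5 after GC correction, and 1 to 8 with each library left out. The count of lower members (3) was 6 with total counts and 1 after GC correction, and 1 to 9 with each library left out. Over all 44615 genes tested this difference had a median of −0.16. The values of all genes moved up by a median of 0.27 with RLE factors and 0.42 with DESeq2. The share of all calls that were higher moved from 21.2% to 48.8% and 51.3%. The part of this offset in the members' counts was not tested. GC correction of both differences between effects was added after seeing the data.

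With the replicate number as a replicate block, 25 members were called lower and 6 higher after siPADI2 in poly(A) RNA, 13 and 9 in the libraries labelled R1810A, and 24 and 2 for the difference. Calls over all genes rose as well. After siPADI2 they were 5683 lower and 5830 higher, against 5225 and 5395 without the block. In the libraries labelled R1810A they were 6607 and 5975, against 4662 and 4348. For the difference they were 4080 and 3684, against 2853 and 2343. Members gaining a call under the block were EGLN1 (0.18, adjusted p = 0.0162) after siPADI2, and LDHA (−0.12, adjusted p = 0.00459) and ALDOA (−0.14, adjusted p = 9.76e-04) in the libraries labelled R1810A. Those gained for the difference are not listed. The labels do not say that numbers mark pairs, and with 2 pairs each (correlation of deviations 0.10 and 0.44) the data cannot show it. No paired analysis was possible for chromatin RNA because its groups share only replicate number 1. Chromatin depth limits weakly expressed members there.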
